A study of Mus musculus with 4 samples.

Results

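The 9 genes described here are the Nodal pathway genes Nodal, Tdgf1, Lefty1, Lefty2, Cer1 and Foxh1 and the mesendoderm target genes Gsc, Mixl1 and Eomes. They were taken by symbol, all 9 were found among the 24015 genes of the count files, and all 9 passed the filter on low counts. The series compared Control with Trim33-deficient mouse embryoid bodies, free-floating aggregates of differentiating embryonic stem cells. Per the labels, the stem cell lines were of outbred strain, homozygous for Trim33-flox with the transgene UbcCreERT2, and at passages 8 to 10; they were kept with LIF and 2i and without feeder cells before differentiation. UbcCreERT2 is a tamoxifen-activated Cre recombinase under the broadly active ubiquitin C promoter, so deletion was not aimed at 1 cell type. Deficiency was induced on day 4 with 4-hydroxytamoxifen and RNA was taken on day 7, from 2 Control and 2 Trim33-deficient libraries described as independent pairs. The Control libraries carry the genotype label wild type, and whether they also held the floxed allele and Cre, or received 4-hydroxytamoxifen, was not given in the sources used here.

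Nodal is a secreted ligand of the TGF-beta family. It signals through activin receptors and the co-receptor Cripto, encoded by Tdgf1, to phosphorylate SMAD2 and SMAD3, which enter the nucleus with SMAD4 and partners such as the forkhead factor FOXH1. The pathway is known for inducing mesoderm and endoderm in the early embryo, and it limits itself because Lefty1 and Lefty2, which encode secreted inhibitors of Nodal, are among its own targets. Trim33 encodes a chromatin reader and ubiquitin ligase that binds SMAD2 and SMAD3 and has been described at modified histone H3 of the Gsc and Mixl1 promoters.

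The libraries held 10422738 to 13808837 counts in genes. Trim33 was lower in both Trim33-deficient libraries, at 43.8 and 42.3 CPM (counts per 1e+06 counts in genes, scaled by the TMM method) against 93.0 and 109 CPM in Control. Its log2 fold change was −1.23 (SE 0.13), called by DESeq2 (adjusted p = 7.06e-06) but not by edgeR's quasi-likelihood test (adjusted p = 0.219). Control replicate 1 stood apart from the others, with Pearson correlations across genes of 0.932 to 0.952 against 0.967 to 0.978 among the other libraries. Markers of pluripotent cells, visceral endoderm, heart and neural cells were all detected. In such bulk RNA, fewer cells of a type and less RNA per cell cannot be told apart.

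No member passed the edgeR test at an adjusted p under 0.05, where 0.014% of the 14259 genes tested did, and no member passed in DESeq2, where 0.829% of genes did. At an unadjusted p under 0.05, edgeR gave 2 lower members, Mixl1 and Lefty2, and 0 higher. Among all genes 7.84% passed that limit, 4.78% lower and 3.06% higher. DESeq2 gave Mixl1 alone, against 5.26% of genes. The groups did not overlap for 4 of the 9 members. Nodal was higher and Lefty1, Lefty2 and Mixl1 were lower in each Trim33-deficient library than in either Control, and 40.7% of all genes tested were apart in the same sense, 21.4% lower and 19.3% higher. The median log2 fold change was −0.26 over the members and −0.0014 over all genes tested. None of the 9 is among the 84 genes of the authors' deposited table, which holds Trim33 (log2 fold change −1.22, adjusted p = 0.00109 there).

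**Figure D1:**
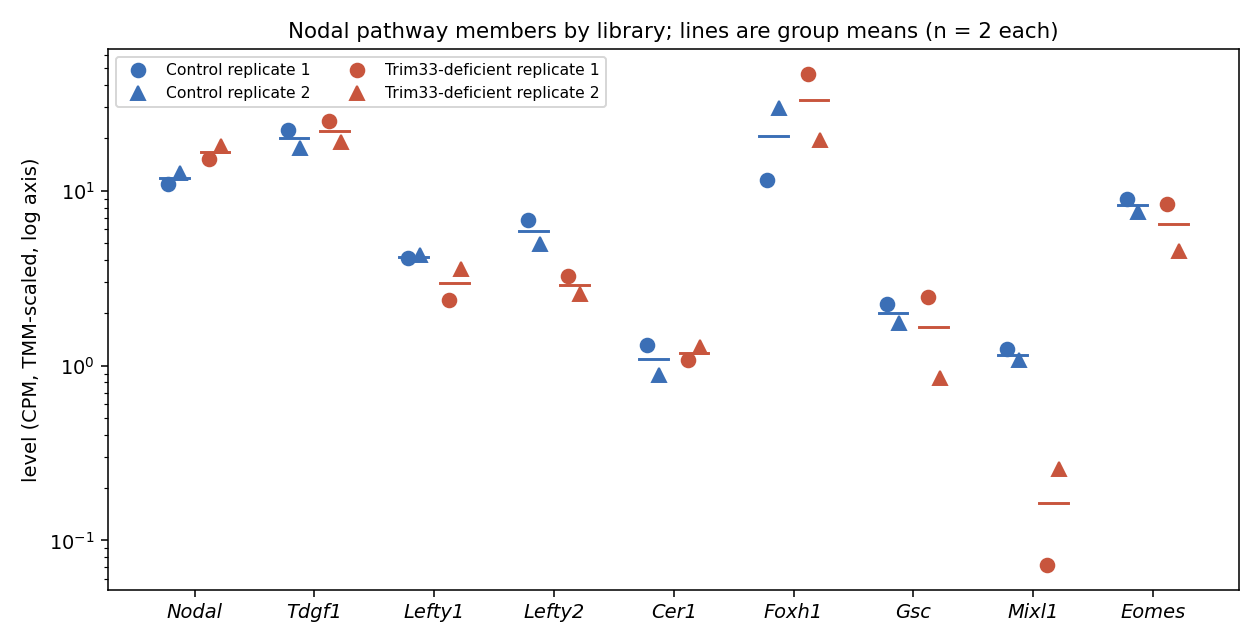
Level of each member in each library in TMM-scaled CPM on a log axis; circles are replicate 1, triangles replicate 2, blue Control, red Trim33-deficient, and lines the group means (n = 2 each). The red points lie above the blue ones for Nodal and below them for Lefty1, Lefty2 and Mixl1, and the groups overlap for the other members.

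For the ligand gene Nodal, 141 and 129 reads were counted in Control and 211 in each Trim33-deficient library. Scaled for depth, these were 10.9 and 12.6 CPM in Control against 15.2 and 18.0 CPM. Neither Trim33-deficient value came down to the Control range, and the 2 pairs taken by replicate number differed by nearly the same amount, 0.48 and 0.51 on the log2 scale. The Control mean was 11.7 ± 1.20 CPM and the Trim33-deficient mean 16.6 ± 1.98 CPM (SD, n = 2 each), a ratio of 1.41. The log2 fold change of 0.50 (SE 0.22, 95% interval −0.086 to 1.09) did not pass the edgeR quasi-likelihood test (unadjusted p = 0.0789, adjusted p = 0.663). Leaving out single libraries moved it between 0.38 and 0.62, always above 0.

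Tdgf1, which encodes the co-receptor Cripto that Nodal needs at the cell surface, stood at 22.3 and 17.6 CPM in Control (289 and 180 counts) and, in the Trim33-deficient libraries, at 25.1 and 19.0 CPM (348 and 222 counts). The groups overlapped, and replicate 1 was the higher library in both groups. Within the pairs the log2 difference was 0.17 and 0.11, in a fit of 0.14 with a 95% interval from −0.49 to 0.77 (edgeR adjusted p = 0.870). The sign was not stable, since it was −0.013 without Control replicate 2 and −0.067 without Trim33-deficient replicate 1. Of the 50-base stretches of the Tdgf1 transcript, 12.5% also occur in the transcript of the pseudogene Tdgf1-ps1, so part of the reads of Tdgf1 may have been placed there or lost.

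The inhibitors come next. Lefty1 and Lefty2 lie near each other on chromosome 1 of GRCm38, at chr1:180935022-180938400 and chr1:180893108-180899103 on the plus strand. Their coding sequences, as annotated by GENCODE on that build, are 1104 bases long each without the stop codon and are identical at 91.8% of positions. The files themselves give no coordinates and the submitters' processing notes name mm9. The 60-base window in which the coding sequences differ most, coding bases 34 to 93 in the first coding exon, is printed because it shows where reads do tell the genes apart. It lies at chr1:180935143-180935202 in Lefty1 and chr1:180893217-180893276 in Lefty2, and capitals mark the 18 bases that differ:
Lefty1: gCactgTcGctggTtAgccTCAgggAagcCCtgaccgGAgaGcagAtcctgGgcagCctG
Lefty2: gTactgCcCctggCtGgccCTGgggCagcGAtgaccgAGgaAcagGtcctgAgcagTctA
Read length was not given in the sources used here, and 50-base stretches were taken in its place. Of all such stretches of the longest transcript, 17.9% in Lefty1 and 11.6% in Lefty2 occur in the transcript of another gene, nearly all of them in the other Lefty gene. The counts of either gene are therefore uncertain by the reads that fall there. How the authors treated such reads was not given in the sources used here.

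Lefty2 was counted 88 and 51 times in Control against 45 and 30 times in Trim33-deficient bodies, or 6.80 and 4.98 CPM against 3.25 and 2.56 CPM. The groups did not overlap, and the Trim33-deficient library was the lower one by 1.03 and 0.92 on the log2 scale within the pairs. The group means were 5.89 ± 1.29 and 2.90 ± 0.483 CPM (SD, n = 2 each), so Control was 2.03 times as high. In the fit the difference was −1.02 on the log2 scale (SE 0.36, 95% interval −1.96 to −0.076), with an edgeR unadjusted p = 0.0392 and adjusted p = 0.627. It stayed between −1.22 and −0.78 as single libraries were left out. The unadjusted p then passed 0.05 without Control replicate 2 alone.

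Lefty1 showed a smaller difference in the same direction. Its counts were 53 and 44 against 33 and 42, Control first, which are 4.10 and 4.30 CPM against 2.38 and 3.59 CPM. The groups did not overlap, and Trim33-deficient replicate 2 was closer to Control than replicate 1 was. The log2 fold change was −0.49 (SE 0.38, 95% interval −1.48 to 0.50, edgeR adjusted p = 0.742). It was −0.22 without Trim33-deficient replicate 1 and −0.81 without Trim33-deficient replicate 2. Because the 2 genes share sequence, their counts were also summed, a choice made after the data were seen. The Control sums were 141 and 95 counts and the Trim33-deficient sums 78 and 72, with a log2 fold change of −0.78 (SE 0.26, edgeR unadjusted p = 0.0336, adjusted p = 0.613).

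Cer1 encodes Cerberus-like, a secreted antagonist that binds Nodal and is known from the anterior visceral endoderm. It was close to the floor of detection, with 17 and 9 counts in Control and 15 in each Trim33-deficient library (1.31 and 0.879 CPM against 1.08 and 1.28 CPM). The exact Poisson intervals (95%, counting error only) were 9.90 to 27.2 and 4.12 to 17.1 counts in Control and 8.40 to 24.7 in both Trim33-deficient libraries, so all 4 overlap. Its fitted difference of 0.094 (log2) had a 95% interval from −1.22 to 1.41 (edgeR adjusted p = 0.964), and the sign turned without Control replicate 2 (−0.15) or Trim33-deficient replicate 2 (−0.022). That interval takes in a 2-fold difference in either direction, which was not detectable for Cer1 in these libraries.

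**Figure D2:**
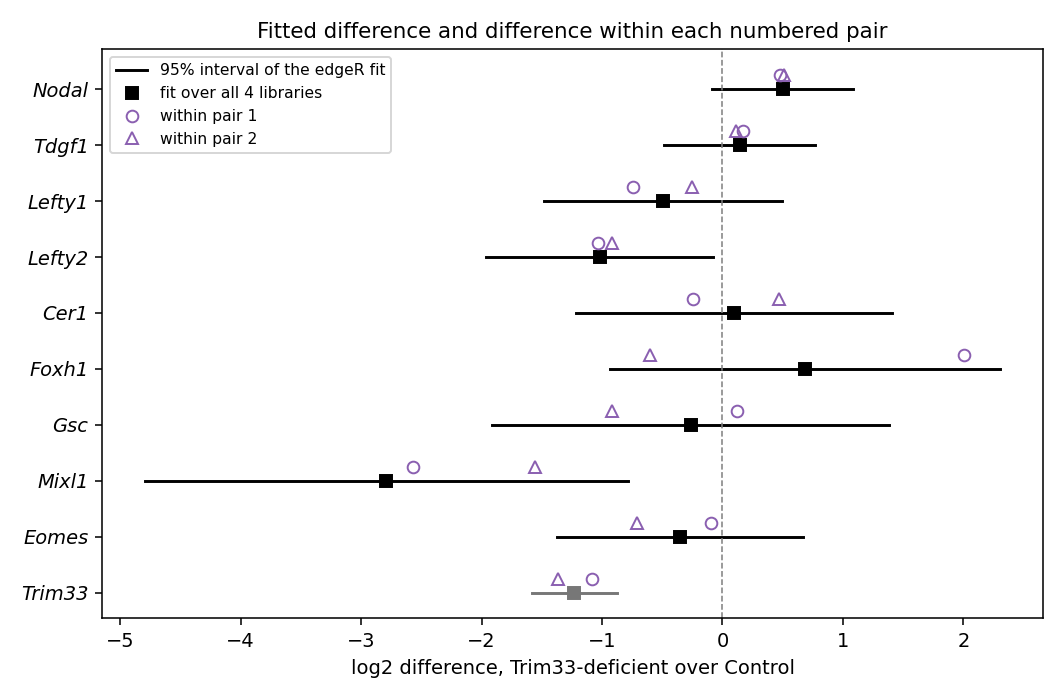
Log2 difference of each member and of Trim33, Trim33-deficient over Control: black squares (grey for Trim33) are the edgeR fit over all 4 libraries, lines its 95% interval, and open symbols the difference within each numbered pair in log2 CPM with a prior count of 2. The intervals of Lefty2 (upper end −0.076) and Mixl1 (upper end −0.79) lie below 0, and the open symbols of Cer1, Foxh1 and Gsc fall on both sides of 0.

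Foxh1 encodes the forkhead partner that brings activated SMAD2 and SMAD3 to DNA. Replicates of both groups differed widely. Its counts were 148 and 305 in Control against 644 and 229, or 11.4 and 29.8 CPM against 46.4 and 19.6 CPM. The highest and the lowest library differed in group, yet the other 2 libraries crossed over, and the pairs differed in opposite directions, by 2.01 and −0.60 on the log2 scale. The log2 fold change of 0.69 (SE 0.62, edgeR adjusted p = 0.775) was −0.072 once Trim33-deficient replicate 1 was left out and 1.54 with Control replicate 2 left out. Cardiac markers, like Foxh1, had their highest level in Trim33-deficient replicate 1: the summed level of Nkx2-5, Tnnt2, Myh6 and Actc1 was 125 and 274 CPM in Control against 942 and 218 CPM, and 0 of the 4 were at 0 in any library. Their part in the Foxh1 values was not tested.

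The target genes Gsc, Mixl1 and Eomes encode transcription factors of the primitive streak and its mesendoderm derivatives. Mixl1, a paired-type homeobox gene, was counted 16 and 11 times in Control, 1 time in Trim33-deficient replicate 1 and 3 times in replicate 2. The exact Poisson intervals (95%) were 9.15 to 26.0 and 5.49 to 19.7 counts in Control, and 0.0253 to 5.57 and 0.619 to 8.77 counts in Trim33-deficient libraries. The groups did not overlap, at 1.24 and 1.07 CPM in Control against 0.0721 and 0.256 CPM, with 1 count worth 0.0721 to 0.0977 CPM. Over the summed counts, 27 in Control and 4 in Trim33-deficient bodies, the depth-scaled ratio was 0.134 (exact interval 0.0342 to 0.385, counting error only). The fitted difference was −2.79 (log2, SE 0.76, 95% interval −4.79 to −0.79), with an edgeR unadjusted p = 0.0165 and adjusted p = 0.548. Its sign held in every fit with a library left out, from −3.82 without Trim33-deficient replicate 2 to −2.12 without Trim33-deficient replicate 1, and the unadjusted p missed 0.05 when replicate 1 of either group was left out. The lowest adjusted p over 12 alternatives was 0.0532, with edgeR's likelihood ratio test.

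Gsc, the goosecoid homeobox gene of the organizer and anterior streak, did not separate the groups. It was counted 29 and 18 times in Control against 34 and 10 times, or 2.24 and 1.76 CPM against 2.45 and 0.854 CPM. The 2 Trim33-deficient libraries were the highest and the lowest of the 4. Their exact Poisson intervals, 23.6 to 47.5 and 4.80 to 18.4 counts, do not overlap, so they differed from each other beyond counting error. The fitted −0.26 (log2) had a 95% interval from −1.91 to 1.38 (edgeR adjusted p = 0.914), and it was 0.29 without Trim33-deficient replicate 2 and −1.21 without Trim33-deficient replicate 1.

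Eomes, a T-box gene required for mesoderm migration and definitive endoderm, was counted 116 and 77 times in Control against 116 and 53 times. These were 8.96 and 7.52 CPM against 8.37 and 4.53 CPM, so that Trim33-deficient replicate 1 lay between the Control libraries and replicate 2 below them. Its fitted log2 difference was −0.35 (SE 0.39, 95% interval −1.37 to 0.67, edgeR adjusted p = 0.810), and 0.025 without Trim33-deficient replicate 2. An antisense gene, Gm33460, covers 2.84% of the exonic bases of Eomes, and the strand setting of the counts was not given in the sources used here.

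**Figure D3:**
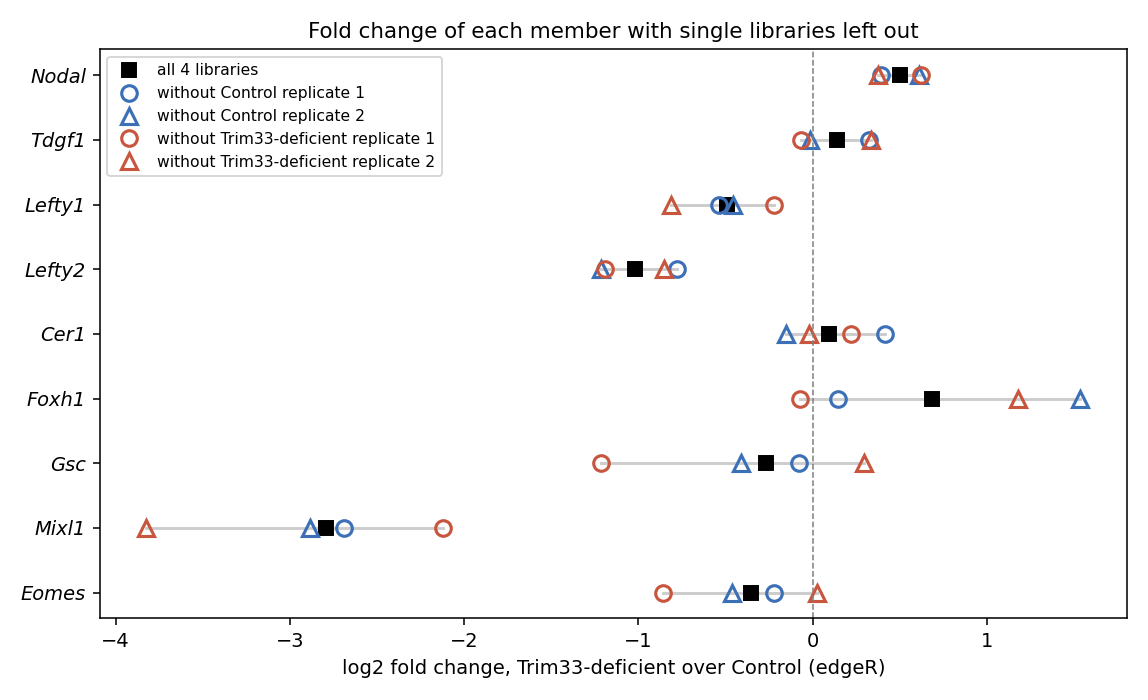
Log2 fold change of each member (edgeR, Trim33-deficient over Control) over all 4 libraries as black squares and with 1 library left out as open symbols. Nodal stays above 0 and Lefty1, Lefty2 and Mixl1 below 0 in all 4 such fits, while Foxh1 runs from −0.072 to 1.54 and Gsc from −1.21 to 0.29.

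The levels of the members were compared with each other per kilobase of their longest GENCODE transcript. In Control bodies the order of mean levels was Foxh1 (15.1 CPM per kilobase), Tdgf1 (10.3), Nodal (5.61), Lefty1 (2.59), Lefty2 (2.38), Eomes (2.32), Gsc (1.58), Cer1 (0.630) and Mixl1 (0.504). The values of Foxh1 and Tdgf1 overlapped between the 2 Control libraries, as did those of Lefty1 and Lefty2, Lefty2 and Eomes, and Cer1 and Mixl1, so these neighbours are not ordered beyond their spread. In Trim33-deficient bodies Foxh1, Tdgf1 and Nodal again had the highest means (24.2, 11.4 and 7.93 CPM per kilobase). Lefty2, at 1.17 CPM per kilobase, came after Lefty1 (1.84), Eomes (1.81) and Gsc (1.30), with Gsc spanning 0.674 to 1.93. Mixl1 was the lowest again, at 0.0716 CPM per kilobase.

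The members did not share a profile over the 4 libraries. Likeness was measured as the distance between log2 CPM profiles centred on their means, over the 12931 other tested genes with a mean of at least 2 CPM, for the 6 members above that level. The gene nearest to Nodal was Lrrc8a (distance 0.020), and the nearest member, Tdgf1 (0.70), ranked 7278. Lefty2 was the nearest member to Lefty1 (0.86, rank 8757), whereas Eomes was nearest to Lefty2 (0.70, rank 1116). Foxh1 had few close profiles, with Apela at 0.088 and Cacnb2 at 0.22. The other nearest genes were Gm15787 for Tdgf1 (0.049), Zfp932 for Lefty1 (0.064), Rnf208 for Lefty2 (0.087) and Satb1 for Eomes (0.0084). With only 4 libraries many genes come this close, and the distances are a description.

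The pathway as a whole was read from 6 lists with 53 genes, the 9 members among them, of which 50 were tested. With edgeR 0 of these were called in either direction (DESeq2 called Trim33). An edgeR unadjusted p under 0.05 was found for 6 lower and 2 higher genes, against 4.78% and 3.06% of all genes tested. The groups were apart with Trim33-deficient lower in 12 genes and higher in 10, against 21.4% and 19.3% of all genes tested. Trim33, the targeted gene, is counted among both the 6 and the 12 lower genes, where its place follows from the design. The median log2 fold change was 0.012. Gdf1, a Nodal partner ligand, was listed at 0 in all 4 libraries, and Acvr1c, the gene of the receptor ALK7, at 1, 1, 3 and 0 counts, and neither was tested.

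Among ligands, co-receptors and processing enzymes, 5 of 8 tested genes had fold changes above 0 (median 0.32). Furin, a convertase that cleaves the Nodal precursor, was counted 2161 and 2649 times in Control against 3690 and 4524 times, with a log2 fold change of 0.62 (edgeR adjusted p = 0.664). The activin subunit gene Inhba was at 1.24, with 21, 12, 23 and 59 counts in the order Control replicates 1 and 2, Trim33-deficient replicates 1 and 2. For Furin and Inhba both Trim33-deficient libraries were the higher ones. With Nodal, 3 of the 8 were apart and higher and 0 lower, against 19.3% and 21.4% of all genes tested. Cfc1, the gene of the second Nodal co-receptor Cryptic, had 73 and 155 counts against 201 and 42 and overlapped. Of 4 tested receptor genes 3 were above 0, and Tgfbr1, a type I receptor of TGF-beta, was at 0.45 (SE 0.14, edgeR unadjusted p = 0.0273, adjusted p = 0.602).

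Of the 6 secreted antagonists 5 had fold changes below 0, with a median of −0.38. The groups did not overlap in 4 of them, Lefty1, Lefty2, Dand5 and Fst, all with Trim33-deficient lower. Among all genes tested 21.4% were apart and lower, and the counts of Lefty1 and Lefty2 are not fully separate because these genes share sequence. Fst encodes follistatin, which binds activin, and was counted 750 and 455 times against 441 and 257 times (log2 fold change −0.93, SE 0.25, edgeR unadjusted p = 0.0154, adjusted p = 0.548). Dand5, a Cerberus relative, had 31 and 29 counts against 27 and 28, a log2 fold change of −0.27, and groups that only just parted (lower Control library 2.40 CPM, higher Trim33-deficient library 2.39 CPM). Nomo1, a Nodal modulator in the endoplasmic reticulum, was at −0.028.

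The genes of the signal transducers had small fold changes. Smad2, Smad3 and Smad4 had log2 fold changes of 0.13, −0.15 and 0.094 (edgeR adjusted p from 0.770 to 0.827), at 1213 to 2599 counts per library. Among 9 intracellular inhibitors 7 were above 0 with a median of 0.17. Pmepa1, a SMAD-induced gene whose product sequesters SMAD2 and SMAD3, was the furthest, at 370 and 259 counts in Control against 534 and 639 (log2 0.79, SE 0.22, edgeR unadjusted p = 0.0170, adjusted p = 0.548). Skil and Ski, corepressor genes of the pathway, were at 0.27 and 0.26, with both Trim33-deficient libraries higher, and Smad7 was at −0.0015. Of the 9 inhibitors, 4 were apart with Trim33-deficient higher and 1 lower, against 19.3% and 21.4% of all genes tested.

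**Figure D4:**
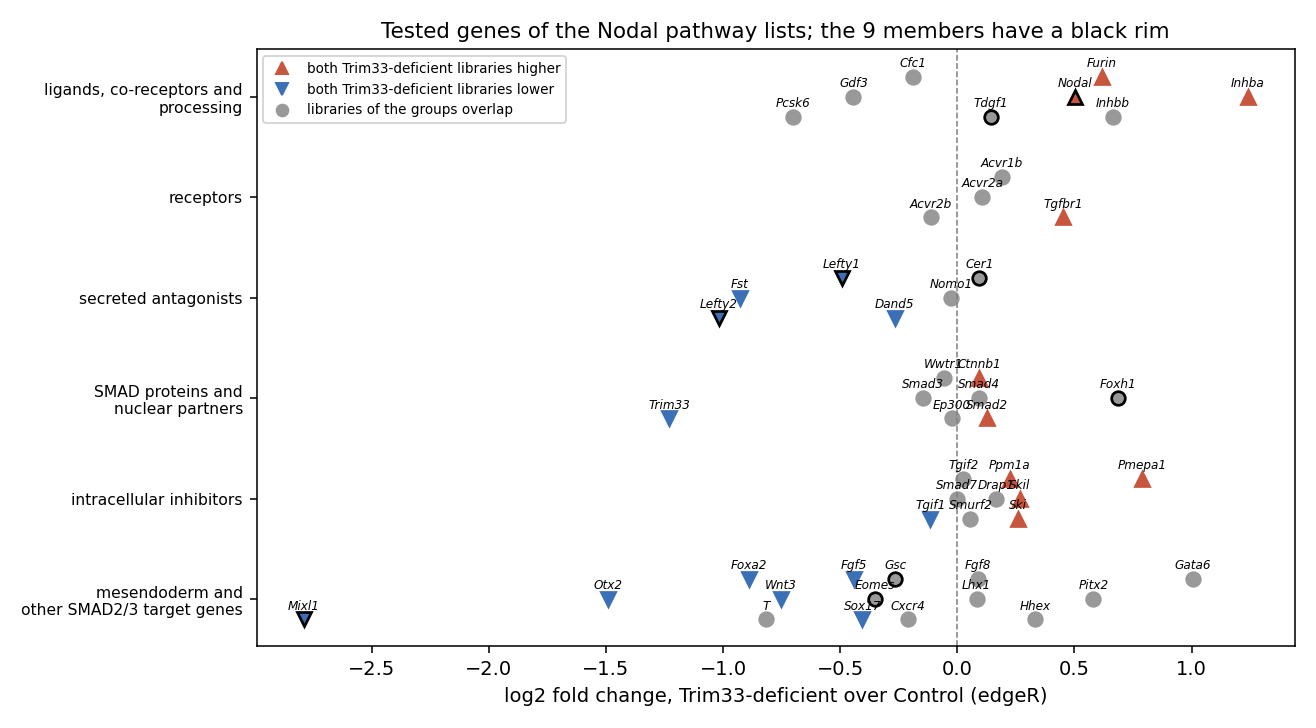
Log2 fold change (edgeR, Trim33-deficient over Control) of the 50 tested genes of the 6 pathway lists, each list on its own row with points staggered for legibility. Red triangles mark genes whose Trim33-deficient libraries were both higher than either Control, blue ones the opposite and grey circles overlap; 4 of 6 antagonists are blue, against 21.4% of all genes tested.

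Of 15 tested mesendoderm and other SMAD2/3 target genes, 10 were below 0 (median −0.35), and the groups were apart in 6 (Trim33-deficient lower in 6 and higher in 0, against 21.4% and 19.3% of all genes, 40.7% in either direction). These were Mixl1, Otx2, Foxa2, Wnt3, Fgf5 and Sox17. Foxa2, an endoderm and node transcription factor gene, had 367 and 320 counts against 288 and 133 (−0.89, edgeR adjusted p = 0.630), and Sox17, an endoderm gene, had 402 and 308 against 362 and 234 (−0.41). T, the Brachyury gene of the streak, had 84 and 24 counts against 39 and 26, so its Control libraries spanned the others. Gata6, an endoderm and heart gene, had 370 and 1704 counts in Control against 1912 and 2955, overlapping, with log2 differences of 2.26 and 0.60 within the pairs. Otx2 was at −1.49 with 1903 and 506 counts in Control against 578 and 331, and it passed the edgeR test in 1 fit alone, that without Control replicate 2.

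Markers of cell types that the bodies could hold were read beside the members, and 21.4% of all genes tested were apart with Trim33-deficient lower and 19.3% higher. Of 10 markers of undifferentiated pluripotent cells, 9 were below 0 and 4 had both Trim33-deficient libraries lower, 1 higher. In that list edgeR called 0 and DESeq2 called 1 lower. Their summed level was 503 and 313 CPM in Control against 254 and 264 CPM. Of 13 visceral endoderm markers, 11 were below 0 and 10 had both Trim33-deficient libraries lower, with summed levels of 1304 and 1764 CPM against 535 and 649 CPM. DESeq2 called 8 of the 13 lower (Afp, Ttr, Apoa1, Apob, Cubn, Amn, Hnf4a and Dab2), and edgeR called Cubn alone. Over all genes that each tested, DESeq2 called 0.829% and edgeR 0.014% in either direction. The 6 markers of anterior visceral endoderm, the known site of Cer1, went both ways, with 3 below 0, 1 apart and lower, and a median log2 fold change of −0.087. Their summed level was 297 and 341 CPM in Control against 286 and 395 CPM. Of 6 tested primitive streak markers 5 were below 0 and 2 were apart and lower, and the sum over all 8 was 81.8 and 54.4 CPM against 67.8 and 30.2 CPM. Definitive endoderm markers summed to 127 and 119.9 CPM against 126 and 70.5 CPM, with 2 of 5 apart and lower, and neural markers to 485 and 199 CPM against 274 and 273 CPM, with 0 of 4 apart. No pluripotency or visceral endoderm marker was at 0 in any library, while Mesp1 was at 0 in Control replicate 2 and Mesp2 in Trim33-deficient replicate 2. The visceral endoderm list shares Sox17, Gata6 and Foxa2 with the target list, and the streak list shares T, Mesp1, Wnt3 and Fgf8 with it. The part of these markers in the values of Nodal, Lefty1, Lefty2, Mixl1 and the other members was not tested.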

How the data were processed

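RNA of 2 Control and 2 Trim33-deficient embryoid body libraries was sequenced. The authors deposited raw counts per gene symbol, and STAR, HTSeq, DESeq and mm9 appear in the submitters' processing notes without versions or roles. Reads assigned to no feature (55.5% to 56.0%) and ambiguous reads (at most 0.200%) were left out. Per the file headers, a results table from the authors holds a mean normalised signal, a fold ratio, a log2 fold change and p-values.

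Counts were filtered with filterByExpr, scaled by TMM and tested over 14259 genes with edgeR 4.0.16 (quasi-likelihood, two-sided, Benjamini-Hochberg, threshold 0.05, R 4.3.3). Standard errors are the absolute log2 fold change over the square root of F. Other fits used DESeq2 1.42.0, voom in limma 3.58.1, the likelihood ratio test of edgeR, other scalings and filters, a replicate block and each library left out in turn. Tests were tested on simulated data. The labels speak of independent pairs, taken here by replicate number. Deviations from the group mean correlated weakly between same-numbered libraries (Pearson 0.236 across genes). With 2 libraries per group this compares only the replicate difference of 1 group with that of the other, so it cannot show pairing. Replicates were not duplicates (chi-square per degree of freedom 30.4 and 20.8). They are not said to be separate lines, and the p-values cover the spread among these 4 libraries, which may be technical.

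Members, lists and tests were chosen with earlier results of these data known, and the summed Lefty counts after the data were seen. Named genes were the members, Trim33, the list genes and the nearest profiles. GENCODE M21 on GRCm38 gave positions, lengths and shared sequence. Some items are not reported here.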

Additional observations from a re-analysis of the deposited data

How the results depend on the processing

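In no alternative was any of the 9 members called, with either edgeR test, DESeq2 or voom. All 9 members kept their direction in every alternative that used all 4 libraries, of which each member had at least 8. The stricter low-count filter left Cer1, Gsc and Mixl1 untested. The replicate block called 2 genes lower and 0 higher, as without it, and changed no member's call (Lefty2 −1.01, adjusted p = 0.406; Mixl1 −2.82, adjusted p = 0.385). Of 116 member values under alternatives, 7 turned in sign, all with a library left out: Tdgf1 (lowest −0.067, highest 0.33), Cer1 (−0.15 to 0.41), Foxh1 (−0.072 to 1.54), Gsc (−1.21 to 0.29) and Eomes (−0.86 to 0.025). Over all genes, the 2 lower and 0 higher calls became 113 and 23 with DESeq2, 140 and 29 with the likelihood ratio test, 0 lower with voom and 14 lower without a low-count filter. With a library left out they ranged from 0 to 66 lower and 0 to 25 higher, the most without Control replicate 2. The 6 pathway lists had 0 genes called, 1 with DESeq2 and with the likelihood ratio test (Trim33 in both), and 0 to 1 with a library left out (Otx2, without Control replicate 2). The cause of these differences was not tested. With a library left out, the single one remaining in that group was taken to be as variable as the other group.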

Other observations

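Mixl1, Lefty2 and Lefty1, the 3 members that were lower in both Trim33-deficient libraries, are neighbours on mouse chromosome 1. In the GENCODE annotation of GRCm38 they lie within 245 kilobases, from the end of Mixl1 at chr1:180693043-180697034 to that of Lefty1. This was noticed after their values were seen. Among other genes annotated in the stretch, Acbd3, H3f3a and Sde2 had log2 fold changes (edgeR, Trim33-deficient over Control) of 0.13, 0.065 and 0.036, against −2.79 for Mixl1, −1.02 for Lefty2 and −0.49 for Lefty1. The groups overlapped for Acbd3, H3f3a and Sde2. None of these 6 genes had an edgeR adjusted p under 0.05 (lowest 0.548, for Mixl1, and highest 0.945, for H3f3a).

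Several genes had their highest count in Trim33-deficient replicate 1, as Foxh1 did. Apela, which encodes a small secreted ligand of the apelin receptor, had 67 and 131 counts in Control against 280 and 96. Hhex, a homeobox gene of anterior endoderm, had 48 and 120 against 182 and 72. Fgf8, a growth factor gene of the streak, had 216 and 210 against 473 and 62. These genes were picked after their values were seen, and Apela was found as the gene nearest to Foxh1 in profile. Trim33-deficient replicate 1 also held the most counts in genes, 13808837. The share of all genes that were highest in it was not counted.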
